A study of Mus musculus with 6 samples.

Results

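The cluster from miR-290 to miR-295 is a run of miRNA genes that mouse embryonic stem cells (ESCs) transcribe at a high level and that is silenced as the cells differentiate. Each gene encodes a hairpin from which Drosha and Dicer cut a duplex with a 5p and a 3p strand, or arm. One arm is loaded into Argonaute, where bases 2 to 8, the seed, pair with target mRNAs. Most of the cluster's 3p arms belong to the ESC cell cycle miRNAs, which lower inhibitors of the G1 to S transition such as Cdkn1a, Rbl2 and Lats2, and which act against let-7 in keeping ESCs in self-renewal. The 7 3p arms of the cluster's sense-strand hairpins were selected by their mature names from the 1907 miRNAs of the count table. They are mmu-miR-290a-3p, mmu-miR-291a-3p, mmu-miR-291b-3p, mmu-miR-292a-3p, mmu-miR-293-3p, mmu-miR-294-3p and mmu-miR-295-3p, and 7 of 7 were found and passed the filter on low counts.

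Small RNAs were sequenced from the C57BL/6 ESC lines RB18 and RB20 in 3 media, giving 6 libraries, each made from a pool of 3 cultures. All cells received 1000 U/ml LIF and grew without feeders. Serum cells were kept in 15% fetal bovine serum, 2i cells in serum-free N2B27 with 1 µM PD0325901, a MEK inhibitor, and 3 µM CHIR99021, a GSK3 inhibitor, and R2i cells in N2B27 with 1 µM PD0325901 and 10 µM SB431542, an inhibitor of TGF-beta type I receptors. Both lines were derived in R2i, from which the 2i and serum cells were then established, and the labels give every library more than 10 passages. Each medium thus had 2 libraries, 1 per line, and the 2i and R2i libraries together are called ground state below.

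The total count was 1041858 to 3593356 per library, and in each medium RB18 was the shallower line, so line and depth cannot be told apart. Markers of ESCs were present in every library. The summed level of miR-302a-3p, miR-302b-3p, miR-302d-3p and miR-367-3p was 2019 to 17804 CPM (counts scaled to a common library total), with 0 of 4 at 0 in any library. Of 11 miRNAs that mark other cell types, miR-223-3p (blood) was at 0 throughout, and miR-451a (erythroid) and miR-122-5p (liver) had at most 66 and 7 counts. Others were present, with 364 to 1202 counts of miR-124-3p and 148 to 522 of miR-9-5p (neural) and 91 to 701 of miR-142a-3p (blood). The muscle miRNAs miR-1a-3p and miR-133a-3p had 36 to 93 counts in serum, 0 or 1 in 2i and 2 to 9 in R2i. The 11 summed to 2507 to 4043 CPM, most of it miR-143-3p, a miRNA of smooth muscle and fibroblasts. By medium the sum was 2507 to 2590 CPM in serum, 3924 to 4043 in 2i and 2750 to 3096 in R2i, and its part in the results was not tested. Serum RB20 stood apart from the other 5 libraries in the summed 3p arms, as shown next, and results that lean on it are given with and without it.

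The mature sequences show what these miRNAs share and where they differ. They were taken from RefSeq on GRCm38.p6, where 6 of the 7 members had an entry, and mmu-miR-292a-3p was not among them. Capitals mark bases 2 to 8.
mmu-miR-291a-3p: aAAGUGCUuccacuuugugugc
mmu-miR-294-3p: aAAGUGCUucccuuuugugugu
mmu-miR-295-3p: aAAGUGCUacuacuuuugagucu
mmu-miR-291b-3p: aAAGUGCAuccauuuuguuugu
mmu-miR-290a-3p: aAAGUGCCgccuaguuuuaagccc
mmu-miR-293-3p: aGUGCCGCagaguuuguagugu
The 6 sequences hold 4 different seeds. mmu-miR-291a-3p, mmu-miR-294-3p and mmu-miR-295-3p share AAGUGCU, mmu-miR-291b-3p and mmu-miR-290a-3p differ from it in the last seed base, and mmu-miR-293-3p has GUGCCGC. The first 5 begin with the same 7 bases and diverge after them. The closest pairs, mmu-miR-294-3p with mmu-miR-291a-3p and with mmu-miR-291b-3p, lay 3 edits apart, and the lengths ran from 22 to 24 bases.

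The 7 hairpins lie on the plus strand of chromosome 7 within 2216 bases, at chr7:3218626-3220841 (GRCm38), in the order Mir290a, Mir291a, Mir292, Mir291b, Mir293, Mir294 and Mir295. The mature arm of mmu-miR-290a-3p is at chr7:3218674-3218697 and that of mmu-miR-295-3p, at the other end, is at chr7:3220815-3220837. In GENCODE M21, Mir290a overlaps no protein-coding gene. The other 6 hairpins lie on the strand opposite Nlrp12, an innate immune receptor gene, and overlap an exon of 1 of its 2 annotated transcripts. Mir290b and Mir292b are annotated on the minus strand across Mir290a and Mir292. Of their 4 mature arms, miR-290b-3p had 2 counts in R2i RB20, miR-292b-5p had 1 count in each of 2i RB18 and R2i RB18, and miR-290b-5p and miR-292b-3p had 0 in every library, against 345 or more of each of the 7 members in any library.

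The first question was how much of the ESC miRNA pool the 3p arms make up in each medium. Together they took 35.1% of all counts in serum RB18, 24.0% in serum RB20, 34.7% in 2i RB18, 32.4% in 2i RB20, 34.6% in R2i RB18 and 33.9% in R2i RB20. The 95% Wilson intervals were narrow, from 23.992% to 24.104% in serum RB20, and cover counting error only. Serum RB20 was thus the low library, while serum RB18 was the highest of the 6, so serum spanned the ground-state shares. This held for shares of the total only. After the TMM normalization used for the level tests, serum RB18 was at 334753 CPM, within the 309470 to 348126 of the ground-state libraries. The mean share was 33.9% ± 1.05 (SD, n = 4) in the ground state and 29.6% ± 7.79 (SD, n = 2) in serum, a difference of 4.36 percentage points, with a two-sided exact permutation p of 0.667 (adjusted over the 4 sums tested, 0.667). The 15 arrangements allow no p below 0.133. Without serum RB20 the difference was -1.15 percentage points, and without serum RB18 it was 9.87. Within RB18 the share in 2i and R2i minus that in serum was -0.379 and -0.423 percentage points, and within RB20 it was 8.39 and 9.83 points.

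**Figure D1:**
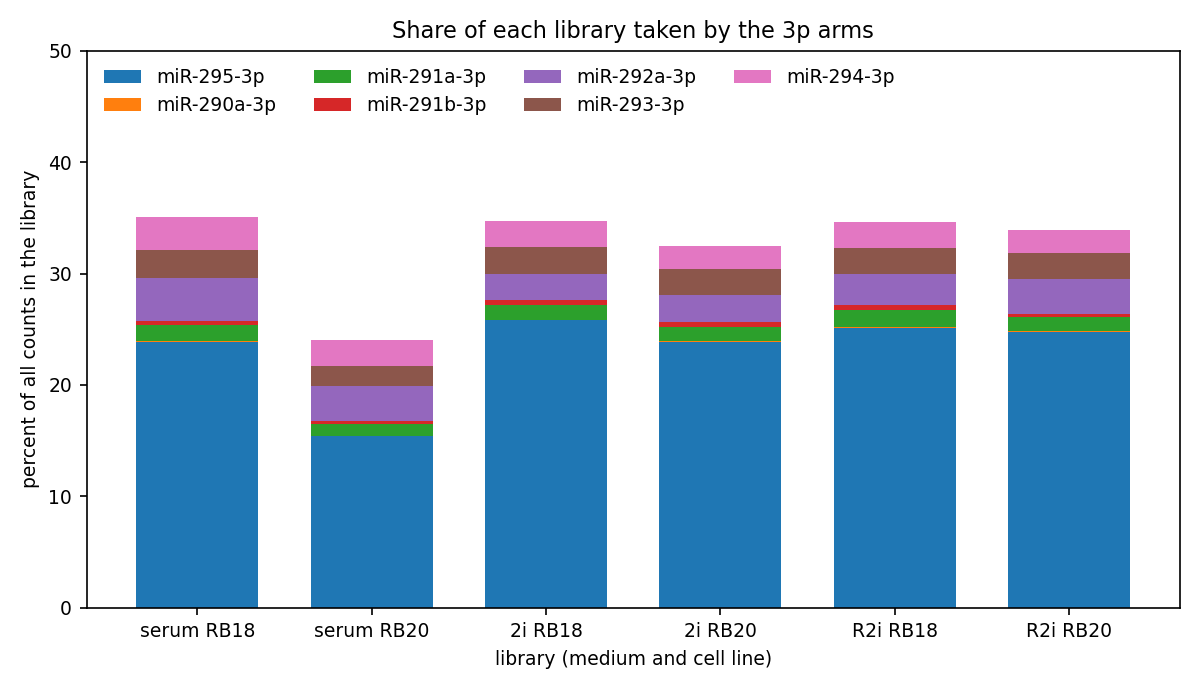
Stacked bars give the percent of all counts in each of the 6 libraries (x axis, medium and cell line) that came from each of the 7 3p arms. The bars reach 24.0% in serum RB20 and 32.4% to 35.1% in the other 5 libraries, and miR-295-3p makes up most of each bar.

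mmu-miR-295-3p alone supplied most of this. It was the most abundant miRNA in all 6 libraries, with 416548 counts in serum RB18, 345015 in serum RB20, 531388 in 2i RB18, 803686 in 2i RB20, 261987 in R2i RB18 and 890768 in R2i RB20. These were 15.4% of serum RB20 and 23.9% to 25.8% of the other libraries. Its part of the summed 3p counts was 66.0% ± 2.94 for serum, 74.0% ± 0.603 for 2i and 72.9% ± 0.406 for R2i libraries (SD, n = 2 each), and the 4 ground-state libraries lay above both serum libraries. Leaving mmu-miR-295-3p out, the other 6 took 9.0% ± 0.393 (SD, n = 4) of the ground-state libraries and 9.93% ± 1.78 (SD, n = 2) of the serum libraries. The difference then had the opposite sign, -0.922 percentage points, and its two-sided exact permutation p was 0.533 (adjusted, 0.667).

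Below mmu-miR-295-3p, the members fell into 4 ranges of level that did not overlap. mmu-miR-292a-3p, mmu-miR-294-3p and mmu-miR-293-3p ranked between 4 and 13 among all miRNAs in every library. Their library values overlapped, from 19504 to 37034 CPM after TMM normalization. Counted in the same library, mmu-miR-292a-3p was above mmu-miR-294-3p in every library, at 1.04 to 1.51 times its count. The ratio of mmu-miR-292a-3p over mmu-miR-293-3p ran from 0.976 in 2i RB18 to 1.80 in serum RB20. That of mmu-miR-293-3p over mmu-miR-294-3p ran from 0.750 in serum RB20 to 1.17 in R2i RB20, so the place of mmu-miR-293-3p was not fixed. mmu-miR-291a-3p followed at 12388 to 14296 normalized CPM (ranks 16 to 22), mmu-miR-291b-3p at 2771 to 4953 (ranks 29 to 42), and mmu-miR-290a-3p at 296 to 381 (ranks 121 to 139). The first hairpin of the cluster therefore gave the least 3p arm and the last gave the most. Counts of different miRNAs also depend on how readily each sequence is captured in a library, which was not measured, so the order is one of counts.

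**Figure D2:**
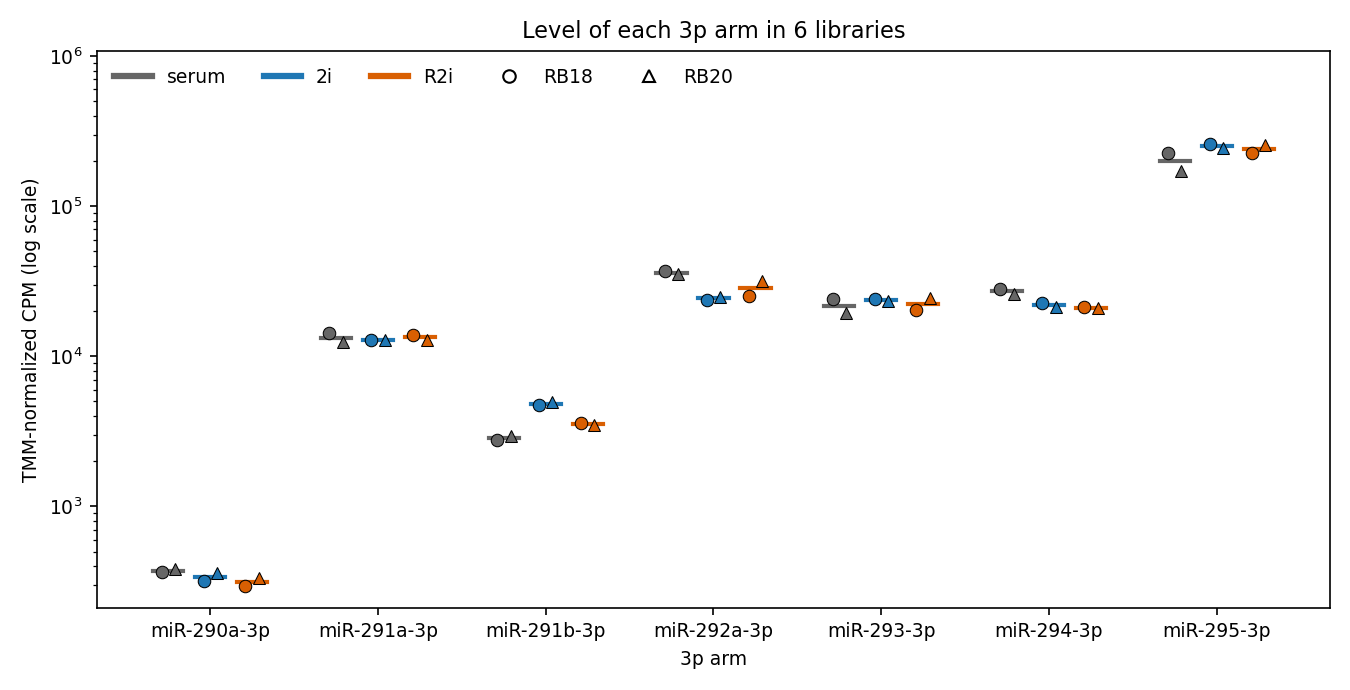
Points give the TMM-normalized CPM (log scale) of each 3p arm in each library, by medium (colour) and cell line (circle RB18, triangle RB20), and short lines the mean of the 2 libraries of a medium. Levels run from 296 for miR-290a-3p to 258118 for miR-295-3p, and within a member the 6 points differ by 1.79-fold at most.

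The levels varied little across the 6 libraries. The highest library value divided by the lowest was 1.15 for mmu-miR-291a-3p, 1.25 for mmu-miR-293-3p, 1.29 for mmu-miR-290a-3p, 1.36 for mmu-miR-294-3p, 1.51 for mmu-miR-295-3p, 1.56 for mmu-miR-292a-3p and 1.79 for mmu-miR-291b-3p. The median was 1.36 over the 7 members and 3.71 over the 571 miRNAs tested. Abundant miRNAs varied less than the rest, and over the 59 tested miRNAs with at least 1000 normalized CPM in every library the median was 1.83.

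The next question was whether any 3p arm differed between media. A miRNA was called at an adjusted p under 0.01 and more than 2-fold in edgeR's quasi-likelihood test over all 571 miRNAs. In 2i against serum 0 of 7 members were called, where 34.2% of all miRNAs tested were called. In R2i against serum the count was 0 of 7 against 30.6%, and in ground state against serum 0 of 7 against 37%. In 2i against R2i it was 0 of 7 against 0.35%, and in RB20 against RB18 0 of 7 against 0%. DESeq2 also called 0 of 7 in each of these comparisons. At an unadjusted p under 0.05, edgeR gave 2 members in 2i against serum (background 57.6%), 0 in R2i against serum (49.6%), 2 in ground state against serum (57.6%), 0 in 2i against R2i (18.2%) and 0 in RB20 against RB18 (6.3%). The median absolute log2 fold change was 0.30 over the members and 0.99 over all miRNAs in 2i against serum, and 0.26 and 0.85 in R2i against serum. The 95% interval of the log2 fold change lay within 2-fold either way for 7 of 7 members in R2i against serum and for 5 of 7 in 2i against serum. The exceptions were mmu-miR-291b-3p and mmu-miR-292a-3p. With pools in 2 libraries per medium, these tests measure spread between libraries of a medium. That spread was estimated for each miRNA partly from all 571 tested. The comparisons with serum also share the 2 serum libraries.

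**Figure D3:**
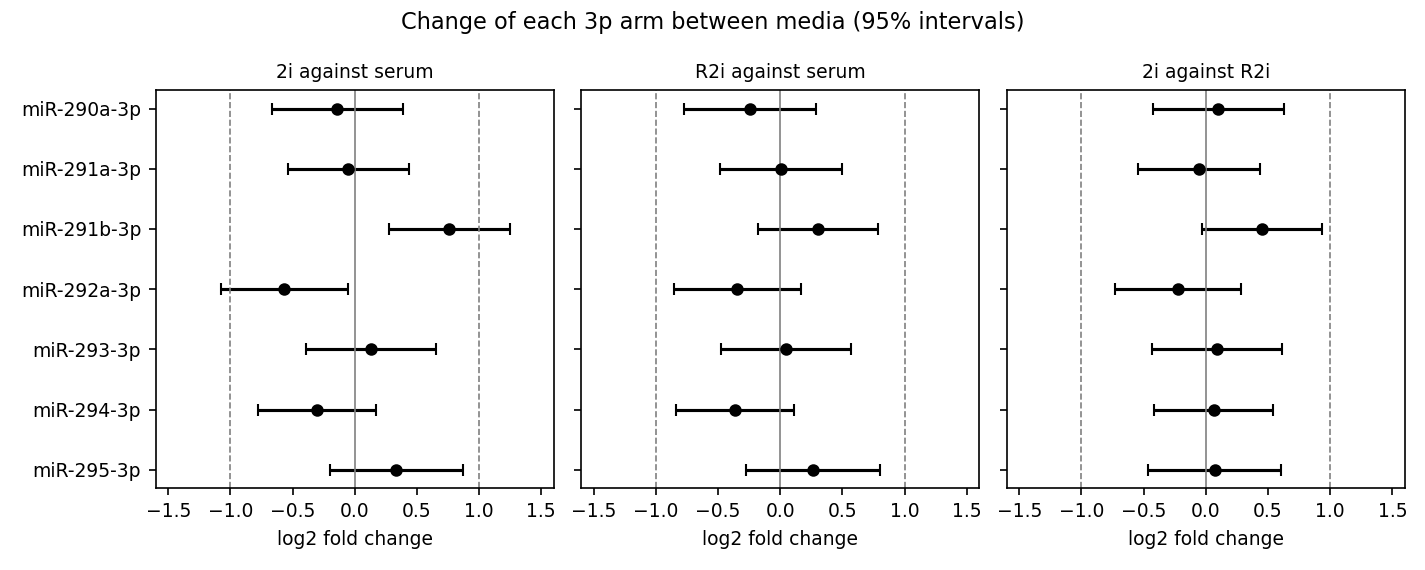
Points give the log2 fold change of each 3p arm in 3 comparisons of media, and bars the 95% interval from edgeR; dashed lines mark 2-fold. The points run from -0.57 for miR-292a-3p to 0.76 for miR-291b-3p in 2i against serum, and 0 of 7 members passed the call rule in any panel.

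mmu-miR-291b-3p had the largest difference of the 7 in 2i and in ground state against serum. Its normalized CPM was 2771 in serum RB18 and 2955 in serum RB20, 4738 in 2i RB18 and 4953 in 2i RB20, and 3618 in R2i RB18 and 3460 in R2i RB20. The 3 media did not overlap, with 2i highest and serum lowest. Its level in 2i was 1.69 times that in serum (95% interval 1.21 to 2.37), a log2 fold change of 0.76 (SE, the standard error, 0.21; edgeR adjusted p = 0.0177). It thus met an adjusted p under 0.05 but not the call rule. In R2i against serum the log2 fold change was 0.31 (edgeR adjusted p = 0.283) and in 2i against R2i it was 0.45 (edgeR adjusted p = 0.301). Without serum RB20 the 2i value was 0.75, and without serum RB18 it was 0.82. The 5p arm of the same hairpin, miR-291b-5p, had a log2 fold change of 0.87 in 2i against serum (edgeR adjusted p = 0.015). The reads of that 5p arm are uncertain, because it lies 2 edits from miR-291a-5p.

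mmu-miR-292a-3p differed in the opposite direction. It stood at 37034 normalized CPM in serum RB18 and 35118 in serum RB20, 23672 in 2i RB18 and 25000 in 2i RB20, and 25230 in R2i RB18 and 31528 in R2i RB20. Every ground-state library lay below both serum libraries, and R2i RB20 was the nearest to them. The log2 fold change was -0.57 in 2i against serum (SE 0.22, edgeR adjusted p = 0.0623) and -0.35 in R2i against serum (edgeR adjusted p = 0.249). The R2i value was -0.20 without R2i RB18 and also without serum RB18, and -0.51 without R2i RB20, and the 2i value was -0.66 to -0.42 over the libraries left out. Its part of the summed 3p counts was 12.1% ± 1.47 for serum, 7.17% ± 0.476 for 2i and 8.60% ± 0.639 for R2i libraries (SD, n = 2 each). The 5p arm of the same hairpin, miR-292a-5p, had a log2 fold change of -0.93 in 2i against serum (edgeR adjusted p = 0.0231). It was -0.65 in R2i against serum (edgeR adjusted p = 0.0931) and -0.79 in ground state against serum (edgeR adjusted p = 0.0217).

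mmu-miR-294-3p, the second member with the AAGUGCU seed, stood at 28253 and 26022 normalized CPM in serum RB18 and RB20, 22683 and 21328 in 2i, and 21289 and 20831 in R2i. All 4 ground-state libraries were below both serum libraries, by a log2 fold change of -0.33 for ground state against serum (SE 0.18, edgeR adjusted p = 0.145). This was -0.16 without serum RB18 and -0.44 without serum RB20. mmu-miR-290a-3p had the same order of groups at a far lower level, 366 and 381 normalized CPM with serum, 318 and 359 with 2i, and 296 and 336 with R2i. Its log2 fold change for ground state against serum was -0.19 (SE 0.20, edgeR adjusted p = 0.447), and -0.11 without serum RB18 or -0.22 without serum RB20. Its counts of 345 to 1177 were also the lowest of the members.

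mmu-miR-295-3p stood at 227990 and 170964 normalized CPM in serum RB18 and RB20, 258118 and 245287 in 2i, and 224635 and 254694 in R2i. R2i RB18 was below serum RB18, so the states overlapped. The log2 fold change for ground state against serum was 0.30 (SE 0.20, edgeR adjusted p = 0.247). It was 0.05 without serum RB20 and 0.63 without serum RB18. mmu-miR-293-3p, whose seed is set apart from the others, ranged from 19504 in serum RB20 to 24403 in R2i RB20, with a log2 fold change of 0.09 (SE 0.20, edgeR adjusted p = 0.743) that was -0.11 without serum RB20 and 0.35 without serum RB18. mmu-miR-291a-3p was the most even, at 14296 and 12388 normalized CPM with serum, 12888 and 12867 with 2i, and 13909 and 12875 with R2i. Its log2 fold change of -0.02 (SE 0.18, edgeR adjusted p = 0.931) was -0.17 without serum RB20 and 0.19 without serum RB18, and it was 0.03 with scaling by library totals or with DESeq2.

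In all, the 4 ground-state libraries did not overlap the 2 serum libraries for 4 of the 7 members. mmu-miR-291b-3p was higher in all 4, and mmu-miR-290a-3p, mmu-miR-292a-3p and mmu-miR-294-3p were lower. Over all miRNAs tested this share was 61.5%, so the count of members was near the background.

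Ratios of 2 members counted in the same library need no scaling between libraries. Of the 21 pairs, 13 had ratios that did not overlap between the ground-state and serum libraries, which is 61.9% against 64.9% of all pairs of tested miRNAs, again near the background. The widest shift was that of mmu-miR-291b-3p over mmu-miR-292a-3p. This ratio was 0.0748 in serum RB18 and 0.0842 in serum RB20, 0.200 in 2i RB18 and 0.198 in 2i RB20, and 0.143 in R2i RB18 and 0.1097 in R2i RB20. Its geometric mean in the ground state was 1.99 times that in serum, and an exact permutation test of 4 against 2 libraries allows no two-sided p below 0.133 for any pair. mmu-miR-292a-3p over mmu-miR-295-3p, which bears on the make-up of the summed arms, was 0.162 and 0.205 with serum, 0.0917 and 0.102 with 2i, and 0.112 and 0.124 with R2i. Across the 6 libraries the normalized levels of 2 members correlated at a median Pearson r of -0.05 over the 21 pairs. The r ran from -0.91 for mmu-miR-291b-3p with mmu-miR-292a-3p to 0.86 for mmu-miR-293-3p with mmu-miR-295-3p. Without serum RB20 these 2 were -0.89 and 0.69 and the median was 0.07, while mmu-miR-291a-3p with mmu-miR-295-3p went from 0.24 to -0.92. These r are descriptions over n = 6 or 5 libraries that share lines and one normalization.

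The third question was which arm of each hairpin dominated and whether that differed between media. The 3p arm far outnumbered the 5p arm for the last hairpins of the cluster: mmu-miR-295-3p had 126 to 205 counts for each 5p count and mmu-miR-294-3p had 19.3 to 26.8. For miR-293 the ratio was 1.20 to 2.46, for miR-291b 1.15 to 1.63 and for miR-292a 0.665 to 1.20. The 5p arm was the larger for miR-291a, at 0.433 to 0.549, and for miR-290a, at 0.123 to 0.149. The arm that dominated was therefore the same in all 6 libraries for 6 of the 7 hairpins, and miR-292a was the exception. The 5p sequences of miR-291a and miR-291b lie 2 edits apart and share a run of 20 bases, and the handling of reads that match both was not given in the sources used here, so their ratios are uncertain. Summed over the 7 hairpins, the 3p arms had 4.17 counts per 5p count in serum RB18, 2.55 in serum RB20, 5.24 in 2i RB18, 4.81 in 2i RB20, 4.23 in R2i RB18 and 4.81 in R2i RB20. Both serum libraries were below all 4 ground-state libraries, narrowly so for serum RB18 and R2i RB18. The two-sided exact permutation p was 0.133 (adjusted, 0.267), the smallest this design gives. mmu-miR-295-3p made up 64.0% to 74.5% of the summed 3p counts, so this ratio follows the mix of hairpins as well as the choice of arm. From serum RB18 to R2i RB18 the single ratios of miR-292a, miR-293 and miR-294 fell, and those of miR-290a, miR-291a, miR-291b and miR-295 rose. The summed ratio was not tested without miR-295. Over all 7 hairpins the mean difference of 1.41 counts per 5p count was 0.603 without serum RB20 and 2.22 without serum RB18. The 5p arms alone took 7.15% ± 0.712 (SD, n = 4) of the ground-state libraries and 8.91% ± 0.716 (SD, n = 2) of the serum libraries. This difference of -1.765 percentage points had a two-sided exact permutation p of 0.133 (adjusted, 0.267). The ratio thus holds a lower 5p share in the ground state as well as the 3p share.

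**Figure D4:**
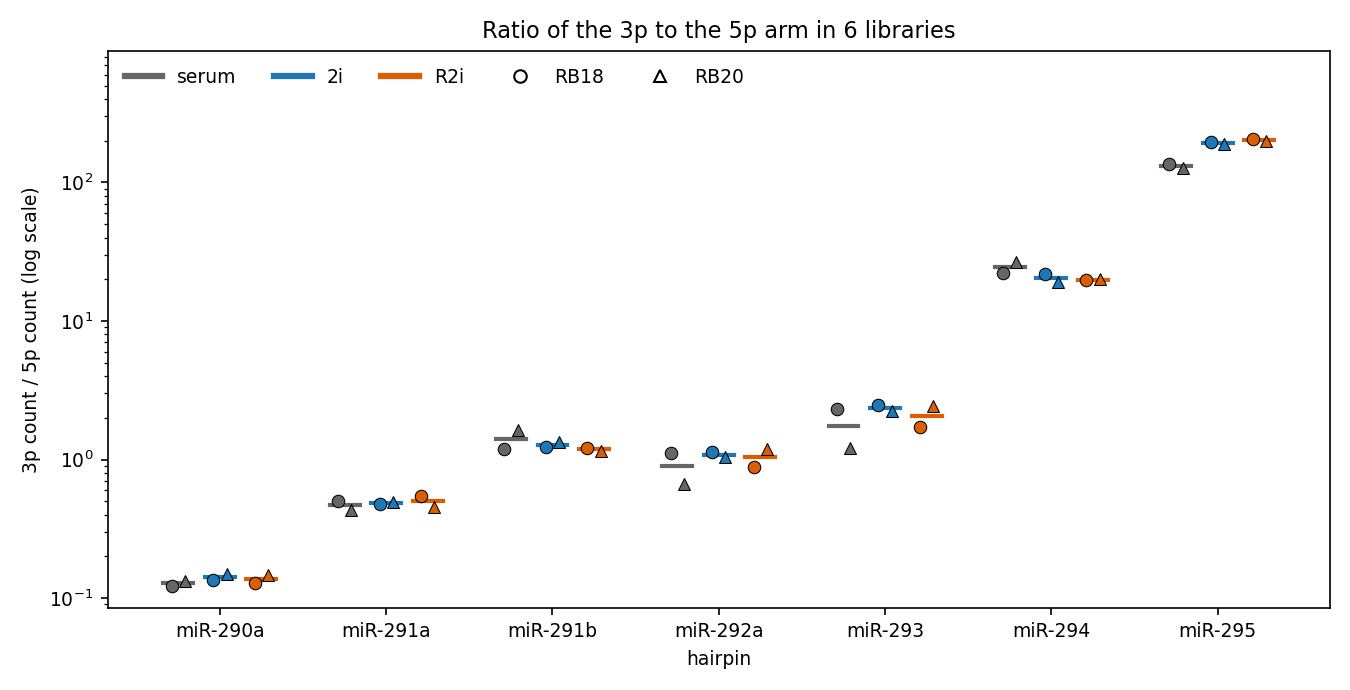
Points give the 3p count divided by the 5p count (log scale) of each hairpin in each library, by medium (colour) and cell line (circle RB18, triangle RB20), and short lines the mean of the 2 libraries of a medium. The ratios run from 0.123 for miR-290a to 205 for miR-295, and serum RB20 is the lowest library for miR-291a, miR-292a, miR-293 and miR-295 and the highest for miR-291b and miR-294.

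The test of the arm ratio compared 3p with 5p counts of 319 hairpins in one edgeR model, with a call at an adjusted p under 0.05. Its SE, intervals and p rest mostly on the spread pooled over all 319 hairpins. They thus say little of how the libraries of a single hairpin varied. Of the cluster's 7 ratios 0 were called in 2i against serum (background 0.94%), 0 in R2i against serum (0%) and 0 in ground state against serum (0%). At an unadjusted p under 0.05 the counts were 2 of 7 in 2i (background 8.78%), 1 of 7 in R2i (5.02%) and 1 of 7 in ground state (9.72%), all toward the 3p arm. The largest was miR-295, whose ratio was 136 in serum RB18 and 126 in serum RB20, 195 and 190 in 2i, and 205 and 200 in R2i. These 2 states did not overlap. The log2 difference was 0.59 for ground state against serum (SE 0.18, edgeR adjusted p = 0.0938), or 1.503-fold with a 95% interval of 1.18 to 1.91. It was 0.53 without serum RB20 and 0.64 without serum RB18, and in the latter fit it was called. A fit without either serum library keeps 1 serum library, which is then assumed to vary like the other media.

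For miR-292a and miR-293 the outcome rested on which serum library was used. The miR-292a ratio was 1.12 in serum RB18 and 0.665 in serum RB20, 1.13 and 1.04 in 2i, and 0.888 and 1.20 in R2i. The miR-293 ratio was 2.31 in serum RB18 and 1.20 in serum RB20, 2.46 and 2.25 in 2i, and 1.73 and 2.42 in R2i. Serum RB20 was the lowest library for both. The log2 differences for ground state against serum were 0.29 (edgeR adjusted p = 0.738) and 0.39 (edgeR adjusted p = 0.566). Without serum RB18, where the lone serum library lends no spread of its own, they were 0.67 and 0.87 and were called, and without serum RB20 they were -0.08 and -0.08. Serum RB20 also held 106608 counts of miR-292a-5p, the highest of the 6 libraries, at 70871 of mmu-miR-292a-3p.

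The supply of the shared seed was then set against other miRNAs that carry it. Among the miRNAs of the table with a RefSeq sequence, 5 have AAGUGCU at bases 2 to 8, and the others beside the 3 members are miR-302b-3p and miR-302d-3p, of the miR-302 cluster that is also active in pluripotent cells. The 3 members supplied 99.4% of these counts in serum RB18 and 98.7% in serum RB20, 98.2% in 2i RB18 and 98.8% in 2i RB20, and 94.7% in R2i RB18 and 97.6% in R2i RB20. The 3 members dominated in every library, with the lowest shares in R2i. All 5 together took 28.5% of serum RB18, 19.1% of serum RB20 and 27.5% to 30.7% of the ground-state libraries. miR-302a-3p, with 298 to 1962 counts per library, was not found in this search and is in none of these shares. mmu-miR-291b-3p shared its seed with miR-350-5p and supplied 98.9% to 99.7% of those counts. mmu-miR-290a-3p and mmu-miR-293-3p shared theirs with 0 others among the 1623 of 1907 table names that have a RefSeq sequence. mmu-miR-292a-3p is not in that set, so whether it shares a seed with either was not examined. Its 23672 to 37034 normalized CPM were far above the 296 to 381 of mmu-miR-290a-3p.

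**Figure D5:**
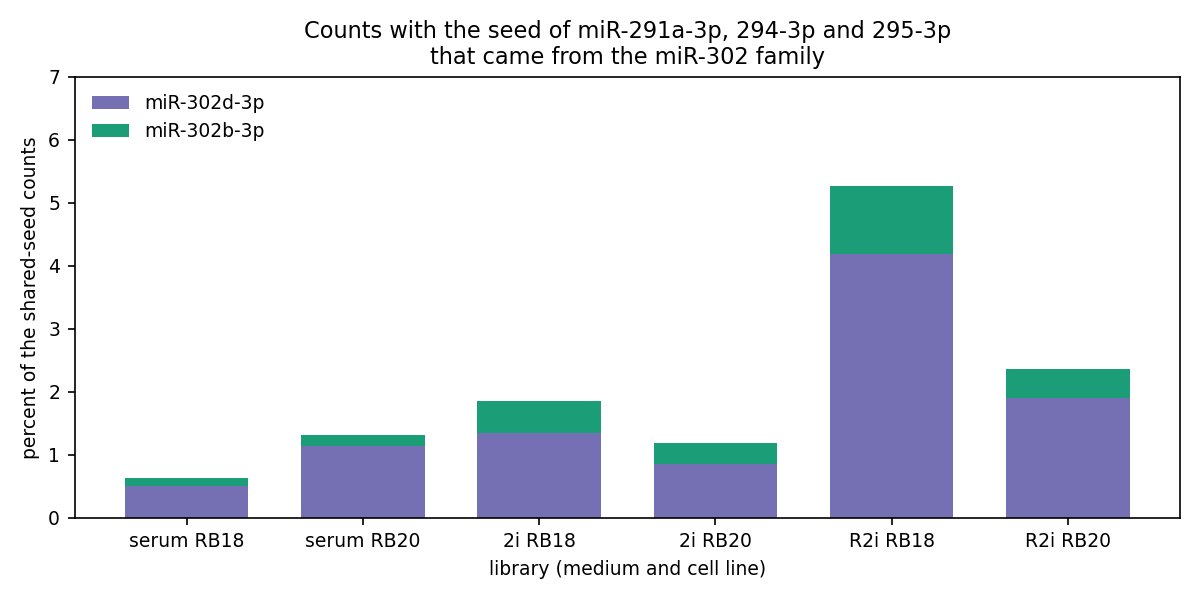
Bars give, for each library (x axis), the percent of the counts with the seed of miR-291a-3p, miR-294-3p and miR-295-3p that came from miR-302d-3p and miR-302b-3p. The 2 parts make up 5.27% of the shared-seed counts in R2i RB18 and 2.36% in R2i RB20, against 0.640% to 1.85% in the other 4 libraries. miR-302a-3p is not included.

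Other miRNAs hold the same hexamer, AAGUGC, 1 base further in, when bases 1 to 9 of the mature sequences were searched. These sequences, again with bases 2 to 8 in capitals, show the shift beside a miR-302 miRNA that has the members' exact seed.
mmu-miR-302d-3p: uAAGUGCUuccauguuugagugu
mmu-miR-93-5p: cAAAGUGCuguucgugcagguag
mmu-miR-17-5p: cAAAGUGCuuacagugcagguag
mmu-miR-20a-5p: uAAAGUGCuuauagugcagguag
miR-93-5p was the most abundant of these, with 13484 and 16507 normalized CPM in serum RB18 and RB20, 18087 and 21431 in 2i, and 14504 and 17965 in R2i. mmu-miR-291a-3p, at 12388 to 14296 normalized CPM, was below miR-93-5p in every library except serum RB18. miR-17-5p and miR-20a-5p ranged from 1471 to 2409 normalized CPM. All miRNAs with the hexamer off the position of bases 2 to 7 summed to 2.22% to 2.73% of a library, and the 5 members found with it at that position to 19.1% to 29.9%. mmu-miR-292a-3p, at 2.37% to 3.88% of a library, was not searched and is in neither sum.

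Among 10 relatives of the seed (4 of the miR-302 family and 6 of the miR-17, miR-20, miR-93 and miR-106 family), 3 rose and 0 fell in ground state against serum by the call rule, where 37% of all miRNAs were called, with a median log2 fold change of 0.31 against -0.02 over all miRNAs. The count called was thus near the background. The 3 were miR-302a-3p (log2 fold change 1.69, edgeR adjusted p = 0.0063), miR-302b-3p (2.15, edgeR adjusted p = 0.00225) and miR-302c-3p (2.66, edgeR adjusted p = 0.00149). miR-302d-3p was at 1.47 (edgeR adjusted p = 0.0166). The 7 cluster members had a median of -0.02. In the let-7 family with miR-98-5p, 9 of 9 miRNAs were tested, of which 2 rose and 1 fell, again near the background of 37%, with a median of 0.40. let-7g-5p was at 1.29 (edgeR adjusted p = 0.00108) and let-7e-5p at -1.24 (edgeR adjusted p = 0.00173). The difference between these lists was not tested.

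Of 557 tested miRNAs outside the cluster, those most like the summed 3p arms over the 6 libraries were miR-1247-5p (Pearson r = 0.93), miR-138-5p (0.93), miR-29a-3p (0.91), miR-196a-1-3p (0.91) and miR-15b-5p (0.90). The most opposite were miR-30c-2-3p (-0.96), miR-30a-3p (-0.95) and miR-126a-5p (-0.94). The summed 3p arms ran from 267332 normalized CPM in serum RB20 to 348126 in R2i RB20. Each of the 5 like miRNAs was lowest in serum RB20 and each of the 3 opposite ones was highest there. miR-29a-3p, for example, was at 284 normalized CPM in serum RB20 and 364 to 422 elsewhere, and miR-126a-5p at 1010 against 487 to 640. miR-196a-1-3p was scarce, at 1.98 normalized CPM in serum RB20 and 6.86 to 13.1 elsewhere, so its r rests on few counts. These r describe n = 6 libraries of shared lines and normalization, and 1 library holds the extreme value in each. Without serum RB20 the r of the 5 like miRNAs were 0.78, 0.68, 0.39, 0.45 and 0.52, and those of the 3 opposite ones -0.85, -0.72 and -0.64, in the order given.

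The 2 cell lines were compared last. In RB20 against RB18 over the 3 media the log2 differences of the members ran from -0.11 for mmu-miR-291a-3p to 0.14 for mmu-miR-290a-3p, with a median absolute value of 0.10 against 0.21 over all miRNAs. The change from serum to ground state was also set side by side in each line. The interaction model took 2i and R2i of a line as 2 libraries of 1 state, with 1 serum library per line. The spread behind its SE and p thus came from 2i against R2i within a line, pooled in part over all 571 miRNAs, with none from serum. For mmu-miR-295-3p the log2 change in RB18 was 0.18 in 2i and -0.02 in R2i, and in RB20 it was 0.52 and 0.58. The difference between the lines was 0.47 (SE 0.23, unadjusted p = 0.0994, adjusted p = 0.79, edgeR interaction). For mmu-miR-291b-3p the 4 changes were 0.77 and 0.38 in RB18 and 0.75 and 0.23 in RB20, all above 0. For mmu-miR-292a-3p they were -0.65 and -0.55 in RB18 and -0.49 and -0.16 in RB20, all below 0. Of 571 miRNAs, 0 had an interaction at an adjusted p under 0.05 and 27 did at an unadjusted p under 0.05.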

How the data were processed

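Small RNA libraries of mouse ESCs (3 media, 2 lines, 6 libraries) were analysed from the deposited tables. The authors trimmed and size-selected reads, aligned them to the mouse genome and deposited raw counts for 1907 mature miRNAs. The submitters' processing notes name the build mm10 and FastQC 0.11.5, cutadapt 1.3, Bowtie 1.1.2 and featureCounts 1.5. The handling of strand and of multi-mapping reads was not given in the sources used here. The authors also deposited log2 values, log2(count / size factor + 1), for 1233 miRNAs, used only in an alternative.

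Members were found by name, and levels were compared in edgeR 4.0.16 (R 4.3.3) after TMM scaling (filterByExpr with a minimum count of 10 and total of 15, quasi-likelihood, 1 coefficient per medium), with Benjamini-Hochberg adjustment over 571 miRNAs and a call at an adjusted p under 0.01 and more than 2-fold. Ground state is the mean of 2i and R2i. Arm ratios were tested as an arm-by-medium interaction over 319 hairpins. The standard error of a log2 change is its value over the root of its F statistic. Shares were compared with exact permutation tests. By their labels, libraries of the same cell line can be paired across media. The main tests between media, of levels and of arm ratios, and the permutation tests did not use this pairing. It entered the comparison within lines and the alternatives that fitted a term for the line. The line differences of 2 media correlated at 0.21, -0.13 and 0.22 over the tested miRNAs.

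Members and lists were chosen with earlier results of these data known. Named were the 7 members, other arms of the cluster, the miRNAs with a member's seed, the 3 most abundant with the hexamer elsewhere, the 5 most and 3 least alike outside the cluster, and list examples. Alternatives were other scalings, filters and limits, DESeq2 1.42.0, limma 3.58.1, the cell line as a block and leaving out libraries; the comparison within lines, the pair ratios and the correlations without serum RB20 were added after the data were seen. Figures were drawn with matplotlib 3.10.9.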

Additional observations from a re-analysis of the deposited data

Results flagged for a closer look

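For 3 values, both ground-state libraries of one line lay above serum and both of the other line below it. How often all miRNAs or hairpins meet this rule was not counted, so the 3 have no background to be set against. Such a flag rests on 1 serum library per line. The spread in the interaction test came from 2i against R2i within a line, pooled in part over all miRNAs. The summed share of the 3p arms was lower in both ground-state libraries of RB18 than in serum RB18 and higher in both of RB20 than in serum RB20, so that the change in RB20 exceeded that in RB18 by 9.52 percentage points. This difference was not tested. For mmu-miR-291a-3p the log2 changes were -0.15 and -0.04 in RB18 and 0.05 and 0.06 in RB20, a difference of 0.15 (unadjusted p = 0.628, adjusted p = 0.966, edgeR interaction), which did not pass. For the ratio of mmu-miR-291b-3p to its 5p arm the log2 changes were 0.05 and 0.04 in RB18 and -0.30 and -0.50 in RB20, a difference of -0.45 that was not tested. The reads of its 5p arm are uncertain because that arm lies 2 edits from miR-291a-5p. In 3 more values the mean of 2i and R2i also had opposite signs in the 2 lines, but 2i and R2i of RB18 lay on different sides of serum. The log2 changes in 2i and R2i were 0.01 and -0.23 in RB18 and 0.27 and 0.32 in RB20 for mmu-miR-293-3p. They were 0.01 and -0.33 in RB18 and 0.64 and 0.85 in RB20 for the miR-292a arm ratio, and 0.09 and -0.42 in RB18 and 0.90 and 1.01 in RB20 for the miR-293 arm ratio. The differences in arm ratio were not tested.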

How the results depend on the processing

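Of 124 alternative values of the 9 main results, 117 kept their direction and their side of the threshold, and 7 did not. With an adjusted p under 0.05 and no fold limit, 1 member was called in 2i and 1 in ground state against serum, mmu-miR-291b-3p in each. Without serum RB18 the arm ratios called were 3 in 2i, 1 in R2i and 3 in ground state, with the lone serum library assumed to vary like the others, where leaving out any other library gave 0. With the replicate block (cell line), 0 members and 0 arm ratios were called, and no call changed. The share difference was -0.92 without miR-295-3p, and -1.15 to 9.87 when a library was left out, against 4.36. Of 35 single values, 13 changed sign in some alternative. The ground-state value of mmu-miR-291a-3p was 0.033 with library totals, 0.0079 with TMM without the 3p arms, 0.041 with TMM without the cluster, 0.030 with DESeq2, 0.013 with no filter, 0.059 with 10 counts in every library, 0.018 with limma and 0.044 with the replicate block and library totals, and -0.17 to 0.19 leaving out a library. Its 2i value was 0.0019 with no filter, 0.031 with 10 counts in every library and 0.0013 from 4 libraries, and -0.21 to 0.16 leaving out a library. Leaving out a library, it ran in R2i from -0.14 to 0.22 and in 2i against R2i from -0.095 to 0.036 (-0.14 with library totals). On the same basis mmu-miR-293-3p ran from -0.066 to 0.40 in 2i, -0.15 to 0.31 in R2i and -0.11 to 0.35 in ground state. In 2i against R2i, library totals gave -0.021 for mmu-miR-294-3p and -0.0067 for mmu-miR-295-3p. With the replicate block and library totals they were -0.017 and -0.011, and with the replicate block alone they kept their sign, at 0.063 and 0.066. Leaving out a library, ground-state arm ratios ran from -0.023 to 0.19 for miR-291a, -0.41 to 0.055 for miR-291b, -0.085 to 0.67 for miR-292a and -0.078 to 0.87 for miR-293. The cause was not tested. Library totals and TMM without the cluster moved the median of all miRNAs in R2i against serum by 0.11. With 2 libraries per medium the precision is set by spread between libraries, not by depth. The edgeR tests estimated that spread in part over all tested miRNAs or hairpins.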
